A study of Mus musculus with 6 samples.

Results

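The proteins that carry membrane vesicles to their targets were examined at the transcript level in hearts of 12-month-old mice, 3 with a knockout of Cenpf and 3 wild-type, with 1 Affymetrix mouse gene array per heart. Members were chosen as a written list of 54 gene symbols, namely SNARE proteins, their binding partners, Rab GTPases, exocyst subunits and synaptotagmins. A probe was accepted where the array's annotation gave exactly 1 symbol equal to a listed gene, and where a gene had several such probes the one of highest mean over the 6 arrays was taken. This left 53 of the 54 listed genes, among 19938 genes with such probes on the array. Vamp2 had no probe of its own symbol alone and was not analysed here. Neither group was treated, and the titles number the hearts as biological replicates. Strain, sex and the Cenpf allele, with its deleted part and any driver, are not given in the labels.

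Vesicles bud from one membrane, are steered and tethered to the next by Rab GTPases and tethering complexes such as the exocyst, and fuse when SNARE proteins on both membranes zip into a bundle. An R-SNARE, usually a VAMP on the vesicle, pairs with Q-SNAREs, usually a syntaxin and SNAP-25-like partners on the target. Sec1/Munc18 proteins guide the pairing, and NSF with its SNAP adaptors pulls spent bundles apart. In heart muscle this machinery delivers glucose transporters and ion channels to the cell surface, serves lysosomes and autophagosomes, and releases natriuretic peptides. Cenpf, a large microtubule-binding protein of the kinetochore, has also been reported in mouse cells to bind Snap25 and Stx4a, which links it to vesicle transport and membrane recycling.

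The values are log2 intensities, and a difference is the knockout mean minus the wild-type mean. Differences were tested with limma over all 21789 single-symbol probes, with Benjamini-Hochberg adjustment over all of them. A background level of 6.35 was set at the 95th percentile of olfactory and vomeronasal receptor probes. Levels of different probes are not comparable on this kind of array, so genes are set against each other only by their differences. The Cenpf probe read 6.35, 6.10 and 6.68 in knockout hearts, against 8.75, 8.54 and 8.04 in wild-type hearts, a difference of -2.07 with groups that did not overlap (limma, adjusted p = 0.0286). Whether the deletion covers this probe is unknown from the labels. All 10 cardiomyocyte markers lay above the background level in both groups, with array means of 13.32 to 13.54 in knockout hearts and 13.34 to 13.45 in wild-type hearts. In whole-heart RNA, fewer cells of a type and less RNA per cell cannot be told apart. Having only 3 arrays in each group sets the precision.

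The trafficking genes differed little between knockout and wild-type hearts. None of the 53 members passed an adjusted p of 0.05 (limma), where 0.0275% of all single-symbol probes did, and the lowest adjusted p among them was 0.357 for Rab5a. At an unadjusted p under 0.05 there were 7 members, 4 higher and 3 lower in knockout hearts. That is 13.2% of the members, against 9.9% of all probes. The groups did not overlap for 8 members or 15.1%, of which 5 were higher and 3 lower, against 14.8% of all probes. Both shares lay near their background. In all, 29 members were higher and 24 lower, where 10442 of the 21789 probes were higher. The median difference was 0.013, where that of all probes was -0.008. The differences spanned -0.43 for Vamp3 to 0.45 for Rab5a.

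The precision was enough to bound most of these genes. The median size of a difference, regardless of sign, was 0.086 for the members and 0.112 for all probes. Of the 53 members, 29 differed by less than 0.1. The 95% interval of the difference lay wholly within a 1.5-fold change in either direction for 47 members or 88.7%, against 82.2% of all probes. The 6 whose interval reached beyond it were Vamp3, Vamp7, Bet1, Rab5a, Exoc5 and Syt11. The intervals are those of each gene alone and are not widened for the number of genes. Of the members, 52 had a mean above background in 1 group or both, and Syt1 was below it in both.

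**Figure D1:**
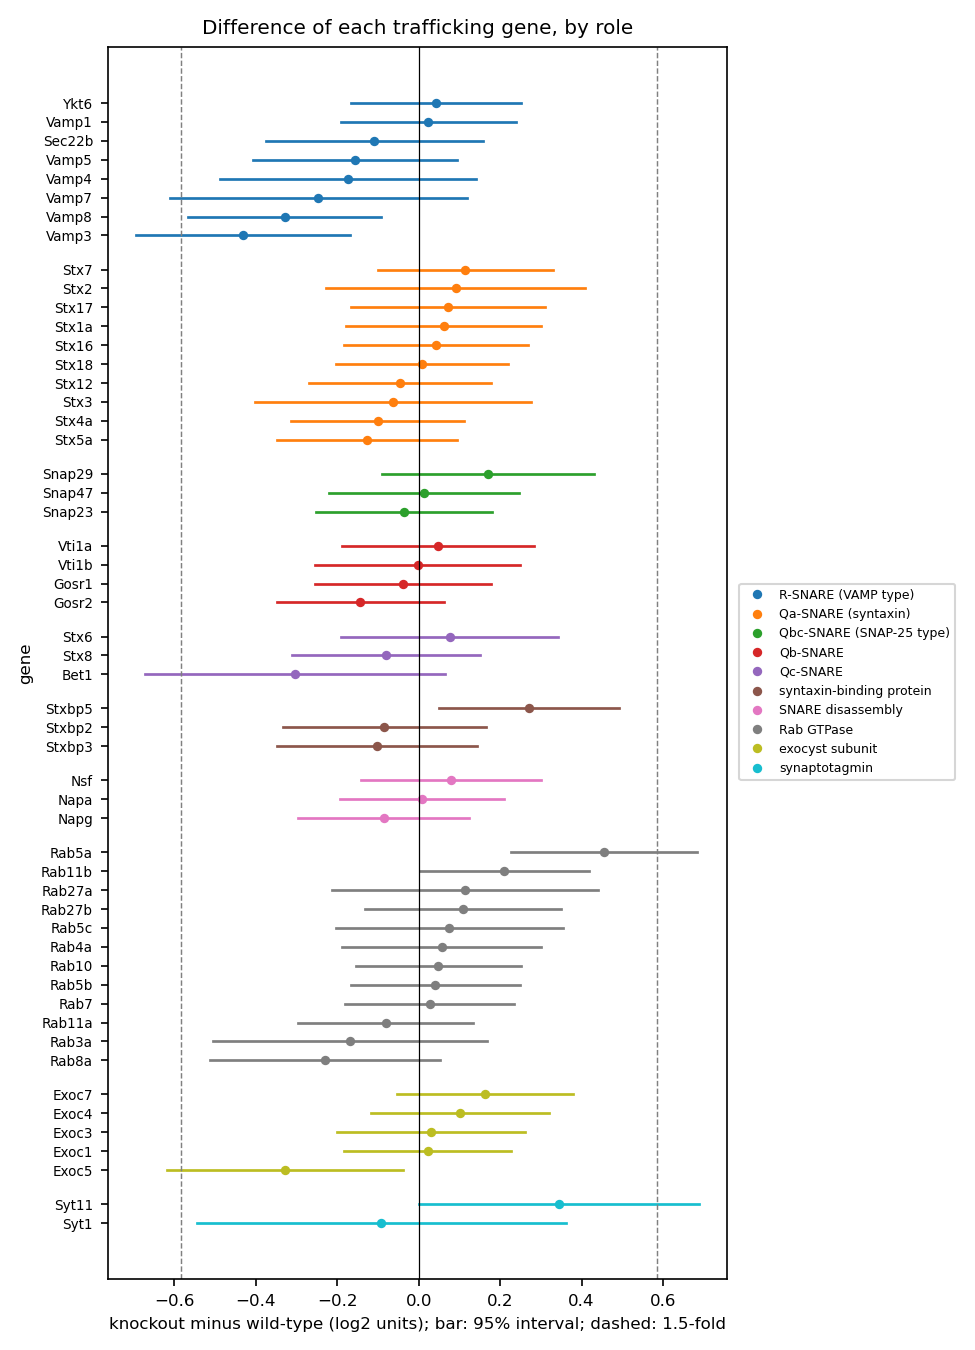
Differences of the 53 trafficking genes between 3 knockout and 3 wild-type hearts, in log2 units, grouped by role. Points are knockout minus wild-type, bars are 95% intervals of each gene from limma, and dashed lines mark a 1.5-fold change. The points lie on both sides of 0, and 6 bars cross a dashed line.

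**Figure D2:**
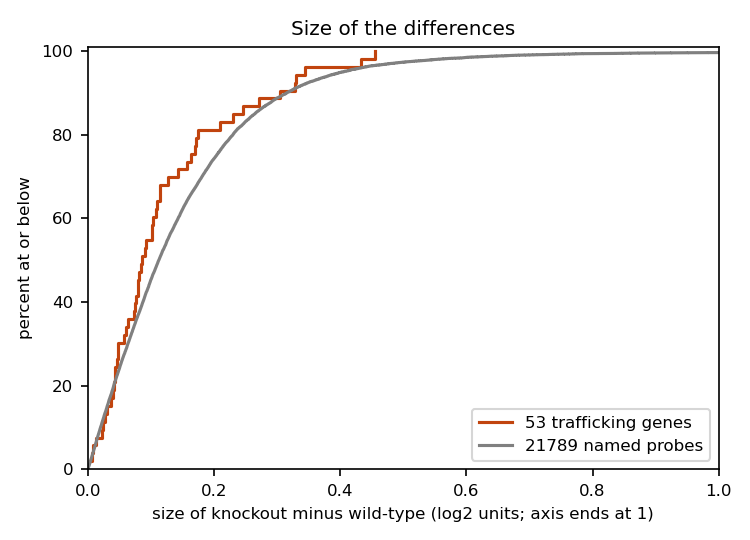
Cumulative percentage of genes or probes by the size of the difference between knockout and wild-type hearts, regardless of sign, in log2 units. The red line holds the 53 trafficking genes and the grey line all 21789 single-symbol probes. The medians are 0.086 and 0.112, and the largest value of a trafficking gene is 0.455.

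Rab GTPases label membranes by their identity and recruit the motors, tethers and fusion factors that belong there. All 12 listed Rabs were measured, of which 9 were higher and 3 lower in knockout hearts, with a median difference of 0.053. None passed the adjusted test, and 2 or 16.7% had an unadjusted p under 0.05 (limma), against 9.9% of all probes. Rab5a, the regulator of early endosomes, read 10.20, 10.15 and 10.20 in knockout hearts, against 9.76, 9.60 and 9.83 in wild-type hearts. All 3 knockout values lay above all wild-type values, and the knockout hearts lay close together. The means were 10.18 ± 0.03 in knockout and 9.73 ± 0.12 in wild-type hearts (SD, n = 3 each). The difference of 0.45, with a standard error of 0.10, corresponds to 1.37-fold, with a 95% interval of 0.23 to 0.68 on the log2 scale (limma, unadjusted p = 0.00172, adjusted p = 0.357). The adjusted p ranged from 0.0826 to 0.745 over the alternatives run.

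The other early endosome Rabs did not show a difference of that size. Rab5b and Rab5c differed by 0.041 and 0.075, with 95% intervals of -0.17 to 0.25 and -0.20 to 0.35. Rab11a and Rab11b, which mark recycling endosomes, lay on opposite sides of 0. Rab11a read 10.18, 10.04 and 10.16 in knockout hearts, against 10.15, 10.24 and 10.23 in wild-type hearts, with overlapping groups and a difference of -0.081 (standard error 0.09) that was -0.038 without knockout replicate 2. Rab11b read 11.84, 11.86 and 11.89 in knockout hearts, against 11.58, 11.68 and 11.69 in wild-type hearts. Its groups did not overlap, and it differed by 0.21 with a standard error of 0.09 (limma, unadjusted p = 0.0478, adjusted p = 0.500).

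Rab11b and Rab5b each had a second probe, and for these genes the probe of highest mean may not report the gene alone. On this array neighbouring probe numbers tend to lie on the same chromosome. The 20 nearest named probes of 51 members included at least 10 from the gene's own chromosome, whereas those of the chosen Rab11b and Rab5b probes included 0. The second Rab11b probe (10450034), with all 20 neighbours on the gene's chromosome, read 7.61, 7.54 and 7.51 in knockout hearts, against 6.80, 7.19 and 7.13 in wild-type hearts. Again the groups did not overlap, and the difference was 0.52 with a standard error of 0.12 (limma, unadjusted p = 0.0028, adjusted p = 0.368). Both Rab11b probes were thus higher in all 3 knockout hearts, by sizes that differed. The second Rab5b probe (10373521) differed by 0.011, against 0.041 for the chosen one, and its groups overlapped. Whether the chosen probes of these genes also read a near-identical copy elsewhere was not tested.

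**Figure D3:**
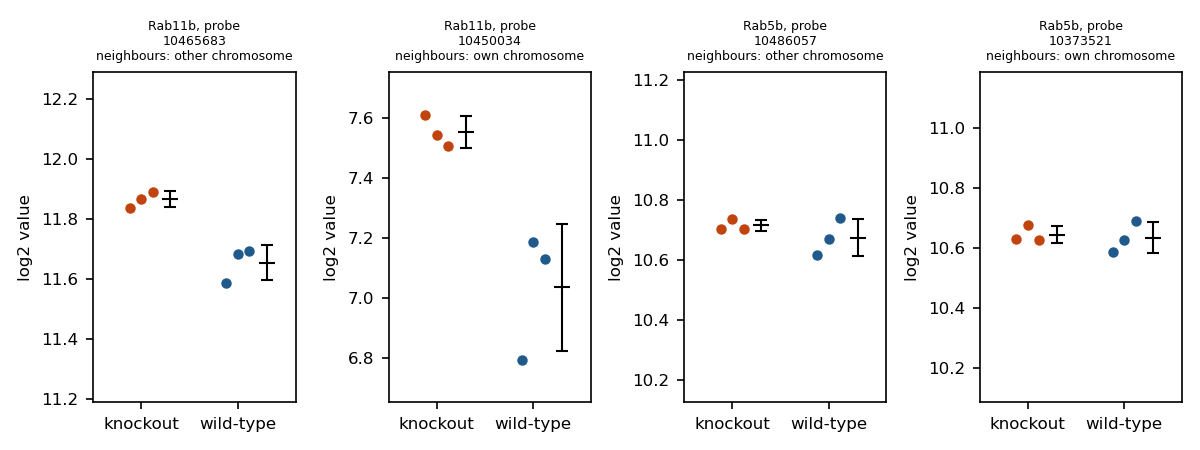
Log2 values of both probes of Rab11b and of Rab5b in 3 knockout (red) and 3 wild-type (blue) hearts, with the group mean and SD in black. All panels span 1.1 log2 units. Both Rab11b probes separate the groups, with differences of 0.21 and 0.52, and neither Rab5b probe does.

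Rab8a, which acts in delivery to the plasma membrane and to the primary cilium, was the lowest of the Rabs by its difference. It read 10.41, 10.17 and 10.23 in knockout hearts, against 10.62, 10.59 and 10.29 in wild-type hearts. Knockout replicate 1 lay above wild-type replicate 3, so the groups overlapped, and the difference of -0.23 had a standard error of 0.12 (limma, adjusted p = 0.565). Rab10, which acts with Rab8a in surface delivery of the glucose transporter GLUT4, differed by 0.048. Rab4a of the fast recycling route and Rab7 of late endosomes differed by 0.057 and 0.027. Among the Rabs of regulated secretion, Rab3a differed by -0.17, Rab27a by 0.11 and Rab27b by 0.11. Rab27b lay close to the background level in both groups.

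The upstream sequences of the 2 Rab genes whose groups did not overlap are shown because both genes were higher in every knockout heart than in any wild-type heart. They are the 250 bases before the transcript start in RefSeq, build GRCm38.p6, written 5′ to 3′. Rab5a lies on the plus strand at chr17:53478984-53479233 and Rab11b on the minus strand at chr17:33760487-33760736. Capitals mark matches, on both strands, to an E-box (CACGTG), a cyclic AMP response element (TGACGTCA), a CCAAT box (CCAAT), a GC box (GGGCGG) or a TATA box (TATAAA).
Rab5a: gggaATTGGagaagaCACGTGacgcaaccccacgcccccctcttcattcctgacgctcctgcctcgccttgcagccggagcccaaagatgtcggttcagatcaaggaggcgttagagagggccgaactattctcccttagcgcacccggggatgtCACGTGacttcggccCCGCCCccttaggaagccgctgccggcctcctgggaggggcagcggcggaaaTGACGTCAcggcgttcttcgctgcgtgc
Rab11b: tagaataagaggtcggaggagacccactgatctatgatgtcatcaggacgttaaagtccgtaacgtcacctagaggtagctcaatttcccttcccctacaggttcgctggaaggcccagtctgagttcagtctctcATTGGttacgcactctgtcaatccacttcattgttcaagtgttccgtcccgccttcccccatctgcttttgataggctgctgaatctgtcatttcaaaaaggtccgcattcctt
Rab5a held E-boxes starting at -235 and -95, a cyclic AMP response element at -28, a reversed CCAAT box at -246 and a reversed GC box at -80, where -1 is the base before the start. None of these matches overlapped another. Rab11b held 1 of these matches, a reversed CCAAT box at -114. An E-box was present in 14.8% of the 61 upstream sequences listed for 48 members, against 6.02% of all 32851 in the table. A cyclic AMP response element was present in 4.92% and 1.55%, a CCAAT box in 50.8% and 33.8%, a GC box in 60.7% and 32.7%, and a TATA box in 4.92% and 12.4%. The median G and C content was 58.8% for the members and 52.4% for all. The E-box, the cyclic AMP response element and the GC box each contain a C followed by a G (CpG). The median number of such CpG pairs was 14 for the members and 6 for all. Whether the shares differ at equal CpG content was not tested. A match of letters is a description and not a site.

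The exocyst is a complex that holds secretory vesicles at the plasma membrane before fusion. Of the 5 listed subunits 4 were higher and 1 lower, and 0 passed the adjusted test (limma). An unadjusted p under 0.05 was seen for 1 of the 5, where 9.9% of all probes had one. Exoc5, the Sec10 subunit, read 8.43, 8.08 and 8.29 in knockout hearts, against 8.66, 8.70 and 8.43 in wild-type hearts. The lowest wild-type value lay just under the highest knockout value, so the groups overlapped, and the difference was -0.33 with a standard error of 0.13 (limma, unadjusted p = 0.0311, adjusted p = 0.473). Exoc7, the membrane-binding Exo70 subunit, read 8.32, 8.42 and 8.48 in knockout hearts, against 8.19, 8.27 and 8.27 in wild-type hearts. Its groups did not overlap, and it differed by 0.16 (standard error 0.09, limma, adjusted p = 0.589). Exoc3, the Sec6 subunit, read 9.86, 9.77 and 9.99 in knockout hearts, against 9.86, 9.89 and 9.78 in wild-type hearts. Its difference of 0.030 had a 95% interval of -0.20 to 0.26 and turned to -0.029 without knockout replicate 3. Exoc1 and Exoc4 differed by 0.022 and 0.10. The subunits of this complex thus did not lie on one side of 0.

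Of the R-SNAREs 8 of 9 were measured, of which 6 were lower and 2 higher in knockout hearts. Their median difference was -0.17, and 0 passed the adjusted test (limma). An unadjusted p under 0.05 was seen for 2 of the 8, both lower, where 9.9% of all probes had one. Vamp3, also called cellubrevin, the R-SNARE of recycling endosomes, read 10.74, 10.41 and 10.47 in knockout hearts, against 10.98, 11.02 and 10.90 in wild-type hearts. Every knockout value was below every wild-type value, with knockout replicate 1 closest to the wild-type hearts. The means were 10.54 ± 0.18 in knockout and 10.97 ± 0.06 in wild-type hearts (SD, n = 3 each). The difference of -0.43, or 1.35-fold lower, had a standard error of 0.11 and a 95% interval of -0.695 to -0.17 (limma, unadjusted p = 0.0051, adjusted p = 0.379). Leaving out knockout replicate 1 gave -0.53, and leaving out knockout replicate 2 gave -0.37.

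Vamp8, also called endobrevin, the R-SNARE of late endosomes that pairs with Stx17 and Snap29 when autophagosomes fuse with lysosomes, followed the same order. It read 10.40, 10.25 and 10.28 in knockout hearts, against 10.69, 10.72 and 10.51 in wild-type hearts. The groups did not overlap, and wild-type replicate 3 lay closest to the knockout hearts. The difference was -0.33 with a standard error of 0.10 and a 95% interval of -0.57 to -0.093 (limma, unadjusted p = 0.0122, adjusted p = 0.424). The upstream sequence of Vamp8, whose groups did not overlap in the opposite direction to Rab5a, lies on the minus strand at chr6:72390668-72390917 (RefSeq, GRCm38.p6).
Vamp8: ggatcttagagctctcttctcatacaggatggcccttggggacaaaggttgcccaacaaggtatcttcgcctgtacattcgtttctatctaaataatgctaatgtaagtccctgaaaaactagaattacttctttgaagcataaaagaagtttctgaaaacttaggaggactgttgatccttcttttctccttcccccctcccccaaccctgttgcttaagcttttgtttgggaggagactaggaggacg
It held 0 of the 5 motifs above and 3 CpG pairs, where Rab5a held 23 and Rab11b 9. Its G and C content was 43.6%, against 64.0% for Rab5a and 48.4% for Rab11b. Gosr2, also lower with groups that did not overlap, held a cyclic AMP response element, a CCAAT box and a GC box. Napa and Nsf held an E-box and differed by only 0.0085 and 0.080. No upstream sequence was listed for Vamp3. Whether these motifs go with the direction of a difference was not tested.

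Values of markers of other cell types stand beside these differences, and 0 of these markers passed the adjusted test (limma). Of 6 adipocyte markers 6 were lower in knockout hearts, the direction of Vamp3 and Vamp8, and 3 had an unadjusted p under 0.05, where 9.9% of all probes did. Their array means were 6.54 to 6.79 in knockout hearts and 6.87 to 7.92 in wild-type hearts, with wild-type replicate 3 the lowest of the wild-type hearts as for both VAMPs. Car3, with a difference of -2.29, weighed most in these means. It read 7.72, 7.46 and 6.95 in knockout hearts, against 10.92, 9.66 and 8.42 in wild-type hearts. The groups overlapped for Adipoq, Cidec and Retn and did not for Plin1 and Lep. Lep was below background in knockout and wild-type hearts alike. Fibroblast markers were lower for 5 of 6, with a median difference of -0.10 and overlapping array means of 10.18 to 10.91 in knockout hearts and 10.33 to 10.82 in wild-type hearts. Of 5 smooth muscle markers 2 were higher, with array means of 8.12 to 8.34 in knockout hearts and 8.18 to 8.71 in wild-type hearts. Acta2 differed by -1.28 and Myh11 by 0.32, the 2 of this list at an unadjusted p under 0.05 (limma). Acta2 read 11.07, 10.66 and 11.20 in knockout hearts, against 12.96, 12.76 and 11.07 in wild-type hearts. Wild-type replicate 3 thus lay within the knockout range for Acta2.

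Knockout replicate 1 was the knockout heart of highest Vamp3 and Vamp7. Its mean was the highest of all 6 hearts for neuron, Schwann cell, leukocyte, mast cell and platelet, fibroblast, endothelial and erythroid markers. For smooth muscle and adipocyte markers it was not. Knockout replicate 1 also had the lowest cardiomyocyte marker mean of the 6 hearts, at 13.32, close to 13.34 in wild-type replicate 2. Tnnt2, Actn2 and Myl3 read higher in it than in that wild-type heart. The other cardiomyocyte markers read lower, most of all Ryr2 with 12.07 against 12.29 and Ttn with 12.10 against 12.32. For leukocyte markers the mean of knockout replicate 1 was 8.50, where the other knockout hearts had 7.97 and 8.02 and the wild-type hearts 8.03 to 8.44. For mast cell and platelet markers it was 7.61, where the other knockout hearts had 6.89 and 6.97 and the wild-type hearts 6.74 to 7.12. For fibroblast markers it was 10.91. Of the 10 leukocyte markers 6 were higher in knockout hearts, and 1 had an unadjusted p under 0.05 (limma). This was Coro1a, which was lower by -0.55 with groups that did not overlap (limma, adjusted p = 0.408). Erythroid markers, of which 2 of 5 were measured, were both higher, with array means of 9.24 to 9.46 in knockout hearts and 8.31 to 8.92 in wild-type hearts. Alas2 differed by 0.88 and Slc4a1 by 0.54, both at an unadjusted p under 0.05 with groups that did not overlap (limma, adjusted p = 0.368 and 0.263). Among all probes, 9.9% had such an unadjusted p and 14.8% had groups that did not overlap. Endothelial markers went both ways, with Kdr at 0.43 and Cdh5 at 0.23 but Emcn at -0.27 and Pecam1 at -0.027. Their array means were 10.59 to 10.68 in knockout hearts and 10.52 to 10.58 in wild-type hearts, and 1 of 6 had an unadjusted p under 0.05. The part of these cell types in the differences of the trafficking genes was not tested.

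The other R-SNAREs differed less clearly. Vamp7, which serves lysosomes and late endosomes, read 9.89, 9.36 and 9.50 in knockout hearts, against 9.77, 10.03 and 9.68 in wild-type hearts. Knockout replicate 1 lay within the wild-type range, and the difference of -0.25 had a standard error of 0.16 (limma, adjusted p = 0.625). Without knockout replicate 1 it was -0.40, and without knockout replicate 2 it was -0.13. Vamp5, or myobrevin, found in striated muscle, differed by -0.16 with a 95% interval of -0.41 to 0.093. Vamp4 of the trans-Golgi network differed by -0.17 and Sec22b, an R-SNARE between endoplasmic reticulum and Golgi, by -0.11. Vamp1, the synaptobrevin of motor nerve endings, differed by 0.024 and Ykt6, a lipid-anchored SNARE of the Golgi, by 0.042.

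Knockout replicate 2 held the lowest of the 6 values for 18 of the 53 members, more than any other heart. Wild-type replicate 2 held the highest for 14. The median member lay 0.022 below its mean over the 6 arrays in knockout replicate 2 and 0.024 above it in wild-type replicate 2.

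**Figure D4:**
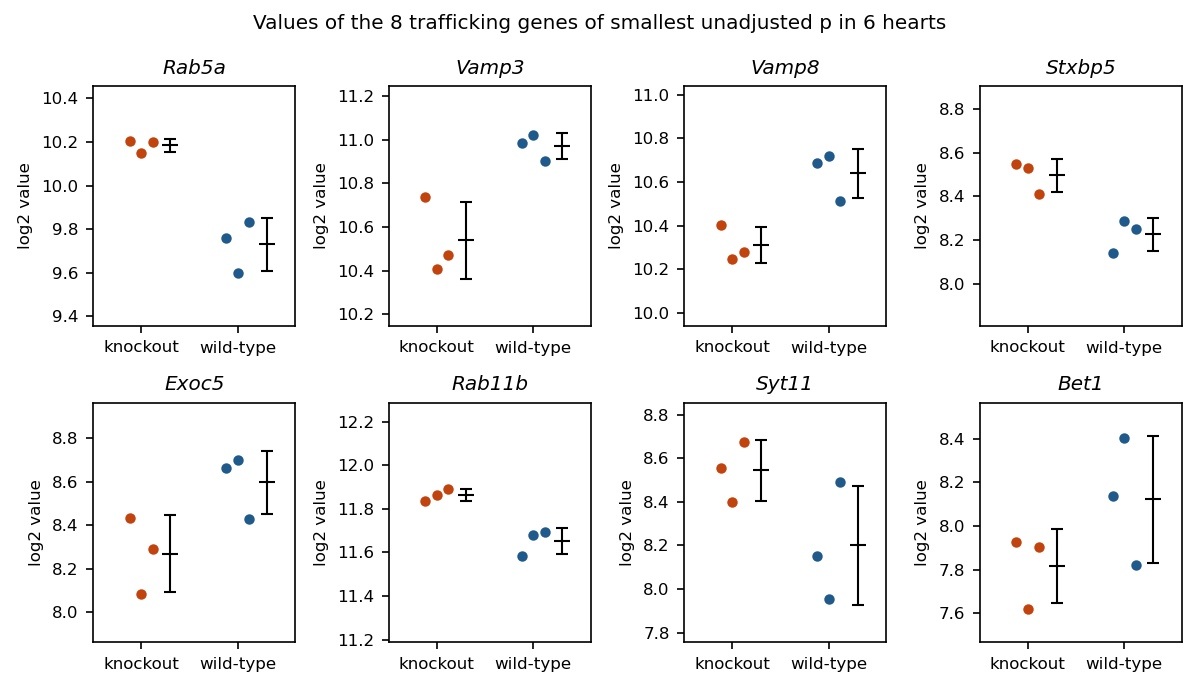
Log2 values in 3 knockout (red) and 3 wild-type (blue) hearts of the 8 trafficking genes of smallest unadjusted p, with the group mean and SD in black. All panels span 1.1 log2 units. The groups do not overlap for Rab5a, Vamp3, Vamp8, Stxbp5 and Rab11b, and they overlap for Exoc5, Syt11 and Bet1.

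Syntaxins, the Qa-SNAREs of target membranes, differed by small amounts. All 10 were measured, 6 higher and 4 lower, with differences from -0.13 to 0.11 and a median of 0.025. Their smallest adjusted p was 0.681 (limma, 0 at an unadjusted p under 0.05), and the 95% intervals of all 10 lay within a 1.5-fold change. Stx4a, the plasma membrane syntaxin for GLUT4 vesicles and a reported partner of Cenpf, read 8.59, 8.46 and 8.50 in knockout hearts, against 8.60, 8.68 and 8.58 in wild-type hearts. Knockout replicate 1 lay just above wild-type replicate 3, so the groups overlapped, and the difference was -0.10 with a standard error of 0.09. Its 95% interval was -0.31 to 0.11. Leaving out 1 heart at a time kept it between -0.14 and -0.072.

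Stx5a, which drives fusion between endoplasmic reticulum and Golgi, read 9.74, 9.66 and 9.79 in knockout hearts, against 9.85, 9.95 and 9.78 in wild-type hearts. It had the smallest unadjusted p of the syntaxins and differed by -0.13 (standard error 0.10, limma, adjusted p = 0.681), or by -0.082 without wild-type replicate 2. Stx7 of late endosomes was the only syntaxin whose groups did not overlap, with means of 9.16 ± 0.06 in knockout and 9.04 ± 0.07 in wild-type hearts (SD, n = 3 each). Its difference of 0.11 had a 95% interval of -0.10 to 0.33. Stx17 of autophagosomes differed by 0.072, Stx12 of recycling endosomes by -0.046, Stx16 of the trans-Golgi network by 0.043 and Stx18 of the endoplasmic reticulum by 0.0071. The surface syntaxins Stx2 and Stx3 differed by 0.090 and -0.064, and the neuronal Stx1a by 0.061.

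The SNAP-25-like proteins give 2 helices to a SNARE bundle. Snap23, the widely expressed form, read 11.73, 11.70 and 11.60 in knockout hearts, against 11.77, 11.72 and 11.64 in wild-type hearts. The groups overlapped, and the difference was -0.037 with a 95% interval of -0.25 to 0.18. Snap29 read 9.24, 9.19 and 9.16 in knockout hearts, against 8.92, 8.93 and 9.23 in wild-type hearts. Wild-type replicate 3 lay among the knockout hearts, so the difference was 0.17 with all arrays and 0.27 without that one (limma, adjusted p = 0.637 and 0.236). Snap47 differed by 0.013. Snap25 itself, the neuronal form and a reported partner of Cenpf, read 6.62, 6.67 and 6.73 in knockout hearts, against 6.59, 6.67 and 6.90 in wild-type hearts, a difference of -0.048. Its values lay little above the background level of 6.35.

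Among the Qb- and Qc-SNAREs, 2 of 7 were higher and 0 had an unadjusted p under 0.05 (limma). Gosr2, a Golgi SNARE, read 10.14, 10.12 and 10.14 in knockout hearts, against 10.29, 10.33 and 10.21 in wild-type hearts. The groups did not overlap, and the knockout hearts were nearly equal. The difference of -0.14 had a standard error of 0.09 and a 95% interval of -0.35 to 0.063 (limma, adjusted p = 0.618). Bet1, which enters the same bundles with Gosr2 and Stx5a, read 7.93, 7.62 and 7.91 in knockout hearts, against 8.14, 8.40 and 7.82 in wild-type hearts. Wild-type replicate 3 lay within the knockout range, and the difference of -0.30 had a standard error of 0.16 (limma, adjusted p = 0.561). Leaving out wild-type replicate 3 gave -0.45, and leaving out wild-type replicate 2 gave -0.16. Gosr1, Vti1a and Vti1b differed by -0.039, 0.047 and -0.0028, and the endosomal Stx6 and Stx8 by 0.076 and -0.080.

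Of the 3 listed proteins that steer SNARE assembly, 1 had an unadjusted p under 0.05 (limma), where 9.9% of all probes did. Stxbp5, or tomosyn, which occupies syntaxins and holds back fusion, read 8.55, 8.53 and 8.41 in knockout hearts, against 8.14, 8.29 and 8.25 in wild-type hearts. Every knockout value lay above every wild-type value. The difference of 0.27 had a standard error of 0.10 and a 95% interval of 0.049 to 0.49 (limma, unadjusted p = 0.0223, adjusted p = 0.457). The Munc18 proteins Stxbp2 and Stxbp3, of which Stxbp3 binds Stx4a, differed by -0.085 and -0.10.

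The genes that take spent SNARE bundles apart were close to equal between the groups. Nsf, the ATPase of the reaction, read 8.72, 8.73 and 8.86 in knockout hearts, against 8.77, 8.64 and 8.66 in wild-type hearts, a difference of 0.080 with overlapping groups that was 0.034 with knockout replicate 3 left out. Napg, the gamma form of its adaptor, read 8.18, 8.26 and 8.17 in knockout hearts, against 8.32, 8.32 and 8.22 in wild-type hearts, and differed by -0.086. Napa, the alpha form, differed by 0.0085 with a 95% interval of -0.19 to 0.21. All 3 intervals lay within a 1.5-fold change.

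Synaptotagmins sense calcium or bind membrane before fusion. Syt11, a form that does not bind calcium, read 8.55, 8.40 and 8.68 in knockout hearts, against 8.15, 7.96 and 8.49 in wild-type hearts. Wild-type replicate 3 overlapped the knockout hearts, and the difference was 0.34 with a standard error of 0.15 (limma, unadjusted p = 0.0499, adjusted p = 0.504). The value was 0.49 with wild-type replicate 3 left out, against 0.22 with wild-type replicate 2 left out. Syt1, the fast calcium sensor of nerve endings, differed by -0.092 below the background level. Of the neuronal markers 4 of 10 were higher in knockout hearts and the others lower. Array means were 6.87 to 7.02 in knockout hearts and 6.73 to 6.91 in wild-type hearts. In 2 of the 10 the unadjusted p was under 0.05, where 9.9% of all probes had such a p. These 2 were Uchl1 with 0.997 and Syp with 0.375, both higher with groups that did not overlap (limma, adjusted p = 0.366 and 0.468). Tubb3 and Elavl4 lay below the background level in both groups. The part of nerve tissue in the Syt11 difference was not tested.

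Wild-type replicate 3 was the wild-type heart nearest the knockout hearts in Rab5a, Vamp3, Vamp8, Rab8a, Exoc5, Bet1, Snap29 and Syt11. The same held for Vamp7, Gosr2 and the chosen Rab11b probe. For Stxbp5, Exoc7 and Stx7 the nearest was wild-type replicate 2. In the fit with array weights, wild-type replicate 3 and knockout replicate 1 had the lowest weights, 0.539 and 0.532. When wild-type replicate 3 was left out, 293 or 1.34% of all probes passed the adjusted test. Still 0 of the 53 members did, with 9 at an unadjusted p under 0.05 (limma). The lowest adjusted p was then 0.0826 for Rab5a. Those 9 members were 17.0% of the list, against 15.8% of all probes in the same fit.

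Other genes of the same routes likewise gave no calls. Of 143 further trafficking genes 137 were measured, 77 higher and 60 lower, with a median difference of 0.019. None passed the adjusted test (limma), and 7 or 5.11% had an unadjusted p under 0.05, where the share of all probes was 9.9%. Among other SNARE and SNARE-regulator genes 17 of 19 were lower, with a median difference of -0.062 and 1 at an unadjusted p under 0.05. These included Stxbp4, or Synip, a partner of Stx4a, with means of 7.98 ± 0.08 in knockout and 8.27 ± 0.19 in wild-type hearts (SD, n = 3 each), a difference of -0.28 (limma, adjusted p = 0.500). Snapin, which binds Snap25, differed by -0.19 with groups that did not overlap.

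Among Rab regulators and tethers 24 of 28 were higher, with a median difference of 0.084 and 1 at an unadjusted p under 0.05, which was itself lower. This was Rabac1, a prenylated Rab acceptor, at 10.50 ± 0.06 in knockout and 10.75 ± 0.02 in wild-type hearts (SD, n = 3 each), a difference of -0.25 (limma, adjusted p = 0.459). Rab3gap2, a Rab3 and Rab18 regulator, differed by 0.19. Of 26 other Rabs 16 were higher, and those of smallest p were Rab12 with 0.28 and Rab21 with 0.22. Of the 5 other exocyst genes 4 were higher, led by Exoc3l with 0.19 and Exoc2 with 0.12.

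Of 28 other synaptotagmins and calcium sensors 14 were higher and 14 lower. Those of smallest p were the Rab27 effectors Sytl3 with 0.42 and Sytl5 with -0.36 (limma, adjusted p = 0.391 and 0.457). Sytl3 was below background throughout, and Sytl5 lay below it in knockout hearts and read 6.38, 6.59 and 6.14 in wild-type hearts, the last below it. Of 31 vesicle coat genes 17 were higher. Sec13, a coat component of vesicles leaving the endoplasmic reticulum, averaged 9.39 ± 0.14 in knockout and 9.70 ± 0.08 in wild-type hearts (SD, n = 3 each), a difference of -0.31 (limma, adjusted p = 0.455). Ap1b1, an adaptor subunit of trans-Golgi clathrin coats, differed by 0.205.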

How the data were processed

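RNA of 6 hearts was hybridised to Affymetrix mouse gene arrays. The deposited table holds log2 values per probe that the authors made with RMA in Partek 6.6, per the submitters' processing notes; no scanner files were used here. RMA corrects background and scales arrays to one distribution, so a shift shared by nearly all genes would not be seen. Genes were named from the platform annotation, by probes with exactly 1 symbol. Groups and replicate numbers came from the titles. limma 3.58.1 in R 4.3.3 was fitted to all 21789 such probes (lmFit and eBayes, without a replicate block), two-sided, with Benjamini-Hochberg adjustment, and was tested on simulated data. The members and lists were chosen with earlier results of these data known. Members given array by array were the 12 of smallest unadjusted p, the smallest in each role, and Stx4a, Snap23, Rab11a, Nsf and Exoc3; of other trafficking genes, the 2 of smallest p in each list were named. Snap25 was added after its values were seen. Chromosomes and upstream sequences came from RefSeq (GRCm38.p6). Alternatives were other normalizations, probe filters, variance models, array weights, a replicate block and leaving out each heart.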

Additional observations from a re-analysis of the deposited data

How the results depend on the processing

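No member passed the adjusted test (limma) under any of the 16 alternatives, and Rab5a, Vamp3 and Vamp8 kept an unadjusted p under 0.05 in all of them. The count of members at an unadjusted p under 0.05 was 12 with array weights, 5 with a replicate block, and 3 to 9 when 1 heart was left out, against 7. Probes passing the adjusted test, 6 in the fit reported, numbered 1 when all probes of the table were fitted, 22 with a trended and robust variance, 33 with array weights, 11 with a replicate block, and 1 to 293 when 1 heart was left out, 293 being without wild-type replicate 3. The median member difference was -0.015 when knockout replicate 1 was left out and at most 0.018 when any other heart was; it was 0.035 with array medians subtracted and 0.021 with array weights, against 0.013. Without knockout replicate 3, Exoc3 turned to -0.029 (range 0.085 at the other end) and Snap23 to 0.002 (-0.070 at the other end); the causes were not tested. Same-numbered hearts did not deviate together (correlations -0.114, -0.158 and -0.00309), so the numbers were not taken as pairs. Taking Rab11b and Rab5b by the probe on their own chromosome, chosen after seeing the data, left 7 members at an unadjusted p under 0.05. Array number limits what could be seen: for 6 members a 1.5-fold change lay inside the 95% interval.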
